A study of Mus musculus with 21 samples.

Results

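Genes of endoplasmic reticulum-associated degradation (ERAD) were examined across wild-type and IRE1α knockout mouse prostate cancer cells and the tumours grown from them. The members are genes named for the recognition, retrotranslocation, ubiquitination and extraction steps of ERAD, by a rule that uses no measured value. They were chosen with earlier results of these data known. Of the 38 genes named, 37 were in the table of 45706 genes, and Fam8a1 was not analysed here. Of the 37, 35 passed the filter on low counts in the comparisons of cells and 36 in those that used tumours. Derl3 passed in none of them and Svip in none of those of cells. The table gives older symbols for a pair of them: Ufd1l is Ufd1 and Vimp is Selenos in GENCODE M21, the gene annotation used for positions.

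Polyadenylated RNA was sequenced from cultured Myc-CaP cells, which derive from a prostate tumour of a Myc transgenic mouse, and from tumours that such cells formed in FVB mice. Cells were either wild type (WT) or of 1 of 3 lines, KO1, KO2 and KO3, in which the gene of IRE1α, Ern1, had been targeted by CRISPR-Cas9 with the same guide. The 8 groups were WT cells (2 libraries), KO1, KO2 and KO3 cells (2 each), WT tumours (4) and KO1, KO2 and KO3 tumours (3 each). All groups carried the Myc transgene. WT was 1 line, and the labels do not say whether a KO line grew from 1 clone. The labels do not say whether the libraries of a group came from separate cultures, so the tests measure the spread between these libraries, which may be technical in part. The labels give neither age nor sex of the mice.

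ERAD removes proteins that fail to fold in the endoplasmic reticulum (ER). Mannosidases trim the glycans of such proteins, lectins bring them to a membrane complex built around the ubiquitin ligase HRD1 and its adaptor SEL1L, and the ATPase VCP draws the ubiquitinated chains into the cytosol for the proteasome. IRE1α is a stress sensor of the ER membrane whose RNase cuts Xbp1 mRNA so that, once rejoined, it yields the transcription factor XBP1s, and several ERAD genes are textbook targets of XBP1s or of ATF6, another sensor. Such factors are known for short promoter elements, of which the ER stress response elements (ERSE and ERSE-II) and the unfolded protein response element (UPRE) were searched here.

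The upstream windows of 7 members are shown because they hold such elements, or, in Vimp, because the core of these elements recurs. Each runs from 160 bases to 1 base before the RefSeq start site in GRCm38.p6, 5′ to 3′ on the strand of the gene, with matches in capitals. They are Syvn1 (chr19:6046416-6046575, + strand), Herpud1 (chr8:94386269-94386428, + strand), Derl3 (chr10:75893238-75893397, + strand), Txndc11 (chr16:11134533-11134692, - strand), Vcp (chr4:43000508-43000667, - strand), Ube2j1 (chr4:33031220-33031379, + strand) and Vimp (chr7:66079489-66079648, + strand).
Syvn1: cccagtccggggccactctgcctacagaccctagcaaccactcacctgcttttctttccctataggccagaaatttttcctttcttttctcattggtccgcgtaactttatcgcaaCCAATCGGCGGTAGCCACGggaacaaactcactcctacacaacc
Herpud1: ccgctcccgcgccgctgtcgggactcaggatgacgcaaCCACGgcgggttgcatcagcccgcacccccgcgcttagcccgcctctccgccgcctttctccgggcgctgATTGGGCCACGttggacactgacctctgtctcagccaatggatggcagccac
Derl3: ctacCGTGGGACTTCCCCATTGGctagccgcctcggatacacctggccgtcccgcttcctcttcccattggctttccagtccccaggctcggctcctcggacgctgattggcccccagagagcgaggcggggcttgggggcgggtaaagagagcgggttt
Txndc11: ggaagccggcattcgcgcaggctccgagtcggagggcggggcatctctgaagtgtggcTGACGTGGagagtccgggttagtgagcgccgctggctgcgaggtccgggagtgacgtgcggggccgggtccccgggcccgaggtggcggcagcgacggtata
Vcp: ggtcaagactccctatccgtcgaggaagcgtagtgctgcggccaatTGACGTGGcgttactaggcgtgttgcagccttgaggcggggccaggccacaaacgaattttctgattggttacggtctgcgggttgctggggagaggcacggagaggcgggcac
Ube2j1: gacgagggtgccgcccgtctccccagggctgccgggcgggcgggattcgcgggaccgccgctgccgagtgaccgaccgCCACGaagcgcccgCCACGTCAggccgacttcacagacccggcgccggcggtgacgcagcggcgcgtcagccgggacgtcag
Vimp: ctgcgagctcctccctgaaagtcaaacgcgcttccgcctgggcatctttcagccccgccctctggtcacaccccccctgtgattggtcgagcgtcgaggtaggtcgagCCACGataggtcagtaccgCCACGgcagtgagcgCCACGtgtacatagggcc
The capitals mark the ERSE in Syvn1 and Derl3 (reversed in Derl3), the ERSE-II and 1 further CCACG in Herpud1, the UPRE in Txndc11, Vcp and Ube2j1 (reversed in Ube2j1, which has 1 further CCACG), and CCACG in Vimp. The ERSE was searched as CCAAT, 9 bases of any kind and CCACG, the ERSE-II as ATTGG, 1 base and CCACG, and the UPRE as TGACGTGG, on both strands over 250 bases before the start. Each of these elements contains CCACG or its reverse, so a match to one is also a match to the core. RefSeq promoters were found for 29 of the members, with 37 promoters in all. The ERSE was in 2 of these 37 and in 0.113% of the 32817 mouse promoters of the same length, the ERSE-II in 1 and in 0.0305%, and the UPRE in 3 and in 0.564%. CCACG alone was in 43.2% of the member promoters and in 28.3% of all. The cAMP response element (TGACGTCA), searched alike, was in none of the 37 and in 1.55% of all. A match is a description of these letters, not of a site in use. Of the 7 genes shown, Syvn1, Txndc11, Vcp and Vimp were lower in KO cells than in WT cells, while Herpud1 and Ube2j1 did not pass and Derl3 had no counts there. CCACG also occurred more than once in promoters of Edem1, Edem3 and Ubxn6, of which Edem1 was lower in KO cells and the others did not pass, and Edem2, the member with the smallest p there, had no match to any element searched.

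Total counts were 18105538 to 25068254 in cells and 15994285 to 27497796 in tumours. In WT tumour 4, Yam1 reads made up 24.0% of the library (at most 8.47% in another tumour), and in WT tumour 1 the summed neutrophil markers reached 234 CPM (counts scaled to the library total) against 2.42 to 8.31 CPM in the other tumours. WT tumours 3 and 4 carry the same number in their descriptions, which may be a shared mouse. Ern1 itself was detected in all groups. It was at 126.7 ± 8.74 CPM in WT cells and at 181.8 ± 15.5 (KO1), 198.2 ± 3.03 (KO2) and 183.7 ± 5.87 CPM (KO3) in the knockout cells (SD, n = 2 each; log2 fold change 0.56 ± 0.09, adjusted p = 0.00341 by edgeR). Counts over the whole gene cannot show an edit of a few bases. Xbp1 was at 113.4 ± 3.92 CPM in WT cells and at 54.1 ± 0.0685, 70.4 ± 6.89 and 95.5 ± 6.72 CPM in the 3 lines (SD, n = 2 each), and did not pass (log2 fold change -0.64 ± 0.21, adjusted p = 0.0668 by edgeR). Of the epithelial markers, Krt8 ran from 22.4 to 157 CPM in cells, Epcam was at 0 in all 8 cell libraries, and Krt18 and Cdh1 did not exceed 0.723 and 0.249 CPM.

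The first comparison set the 6 KO cell libraries against the 2 WT cell libraries and asked which steps of ERAD differed without IRE1α in culture. Of 35 members tested 12 fell and none rose, where 9.76% of 12254 genes tested fell and 4.99% rose at the same threshold, an adjusted p under 0.05 in edgeR's quasi-likelihood test. The median log2 fold change was -0.17 over the members and 0.02 over all genes. The falls lay mainly with glycan recognition and with VCP, where 5 of 7 and 4 of 9 tested genes fell. In the HRD1 complex 2 of 6 fell, among the other ligases and their cofactors 1 of 9, and among the E2 enzymes none of 4. The step medians were -0.96, -0.26, -0.19, -0.04 and -0.07 in that order, on the log2 scale.

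Edem2, a glycoprotein-trimming mannosidase-like protein, had the smallest p of the members. It was at 256.8 and 257.5 CPM in WT cells, and at a lowest of 67.57, a median of 69.79 and a highest of 91.27 CPM in the 6 KO libraries. All KO libraries lay far below WT, with KO3 the highest of the lines, and the log2 fold change was -1.81 ± 0.10 (SE; 95% interval -2.03 to -1.59; adjusted p = 5.68e-06 by edgeR). Txndc11, a thioredoxin-domain protein of the ER known as a redox partner of EDEM2, went from 55.57 and 48.51 CPM in WT to between 14.5 and 20.39 CPM in KO (median 15.3). The groups did not overlap, and the log2 fold change was -1.71 ± 0.12 (adjusted p = 2.5e-05 by edgeR). These were the 2 members that passed in each of the 18 alternative analyses of this comparison.

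Edem1, the best known of the EDEM proteins, was at 132.5 and 132.6 CPM in WT cells and at 53.95 to 67.78 CPM in KO cells (median 61.04). Its log2 fold change was -1.11 ± 0.08 (adjusted p = 3.15e-05 by edgeR), and all 3 lines were near each other, at -1.20, -1.14 and -1.01 in KO1, KO2 and KO3. Erlec1, a lectin that reads trimmed glycans, was at 50.67 and 46.05 CPM in WT and at 22.58 to 28.83 CPM in KO (median 24.5; log2 fold change -0.96 ± 0.10, adjusted p = 0.000215 by edgeR). Os9, the other lectin of this kind, was at 267.4 and 270.0 CPM in WT and at 153.2 to 220.8 CPM in KO (median 177.2). Its groups did not overlap, and its change was smaller (log2 fold change -0.57 ± 0.11, adjusted p = 0.00783 by edgeR). Edem3, the remaining EDEM paralog, and Man1b1, the ER mannosidase that makes the first cut, had log2 fold changes of -0.18 ± 0.10 and -0.14 ± 0.07 and did not pass. Within the EDEM family the values thus ran from -1.81 to -0.18, and the differences between paralogs were not tested.

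In the HRD1 complex the ligase and its adaptor differed. Syvn1, which encodes HRD1, was at 122.5 and 113.7 CPM in WT cells and at 55.47 to 80.01 CPM in KO cells (median 60.56), without overlap (log2 fold change -0.89 ± 0.13, adjusted p = 0.00231 by edgeR). Sel1l was at 150.4 and 153.5 CPM in WT cells, at 177.9 to 197.8 CPM in KO1 and KO2, and at 143.6 and 153.9 CPM in KO3. KO1 and KO2 thus lay above WT and KO3 beside it, and over all lines the gene did not pass (log2 fold change 0.19 ± 0.13, 95% interval -0.10 to 0.48, adjusted p = 0.35 by edgeR). Of the derlins, membrane proteins of the retrotranslocation channel, Derl1 fell (log2 fold change -0.50 ± 0.12, adjusted p = 0.0261 by edgeR), Derl2 was at -0.05 ± 0.13 and did not pass, and Derl3 had 0 counts in all 8 cell libraries. A count of 0 allows up to 0.114 to 0.157 CPM by library (3 counts, for counting error only).

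Herpud1, a ubiquitin-like membrane protein that joins HRD1 and is itself short-lived, was at 178.6 and 171.8 CPM in WT cells. It was at 142.7 and 141.2 CPM in KO1, 171.6 and 161.8 CPM in KO2, and 117.4 and 113.2 CPM in KO3. All KO libraries lay below WT, KO2 only just, and the gene did not pass (log2 fold change -0.32 ± 0.16, adjusted p = 0.205 by edgeR). Its paralog Herpud2 was at 0.17 ± 0.09 and did not pass.

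Outside HRD1 most ligase genes differed little from WT. Rnf5, a membrane ligase, was the member of that step that fell, with 36.65 and 38.24 CPM in WT and 19.52 to 30.76 CPM in KO (median 25.89; log2 fold change -0.57 ± 0.15, adjusted p = 0.0313 by edgeR, past the threshold in 11 of 18 alternatives). The other 8 had log2 fold changes between -0.18 (Rnf185, the closest relative of Rnf5) and 0.10 (Erlin1) and did not pass. Erlin1 and Erlin2 form the complex that marks activated inositol trisphosphate receptors, and Dnajb12 and Dnajb14 are membrane J proteins that bring in HSC70. The E2 enzymes Ube2j1 and Ube2j2 were at 0.02 ± 0.08 and 0.12 ± 0.10, Ube2g2 at -0.28 ± 0.11 (95% interval -0.53 to -0.03, adjusted p = 0.12 by edgeR), and Aup1, which recruits UBE2G2, at -0.15 ± 0.08.

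At the extraction step Vimp, which anchors VCP at the ER membrane, changed about as much as Edem2. It was at 160.1 and 151.4 CPM in WT cells and at 41.45 to 57.28 CPM in KO cells (median 43.17). KO3 was again the highest of the lines, and the log2 fold change was -1.74 ± 0.12 (adjusted p = 2.53e-05 by edgeR). Vcp, the ATPase, was at 431.6 and 436.1 CPM in WT and at 278.4 to 376.7 CPM in KO (median 313.2), without overlap (log2 fold change -0.44 ± 0.11, adjusted p = 0.0244 by edgeR, past the threshold in 11 of 18 alternatives). Ubxn4, a membrane-bound UBX protein that binds VCP, was at 109.0 and 107.0 CPM in WT and at 80.9 to 93.43 CPM in KO (median 87.01; log2 fold change -0.33 ± 0.07, adjusted p = 0.016 by edgeR). Nploc4 passed (-0.26 ± 0.07, adjusted p = 0.0377 by edgeR) but was called in only 8 of 18 alternatives, and Ufd1l, which pairs with it to bind ubiquitin chains for VCP, had a near equal value that did not pass (-0.27 ± 0.10, adjusted p = 0.0912 by edgeR). Faf2, Ubxn6, Ubxn8 and the glycanase Ngly1 lay between -0.17 and -0.05 and did not pass. Svip, which is known to inhibit ERAD, had 0 counts in all cell libraries.

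The count of 12 rested on both WT libraries: without WT cell library 1 or without WT cell library 2, 6 members were called. With libraries summed per line, so that the line was the unit, 2 members were called, Edem2 and Txndc11.

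**Figure D1:**
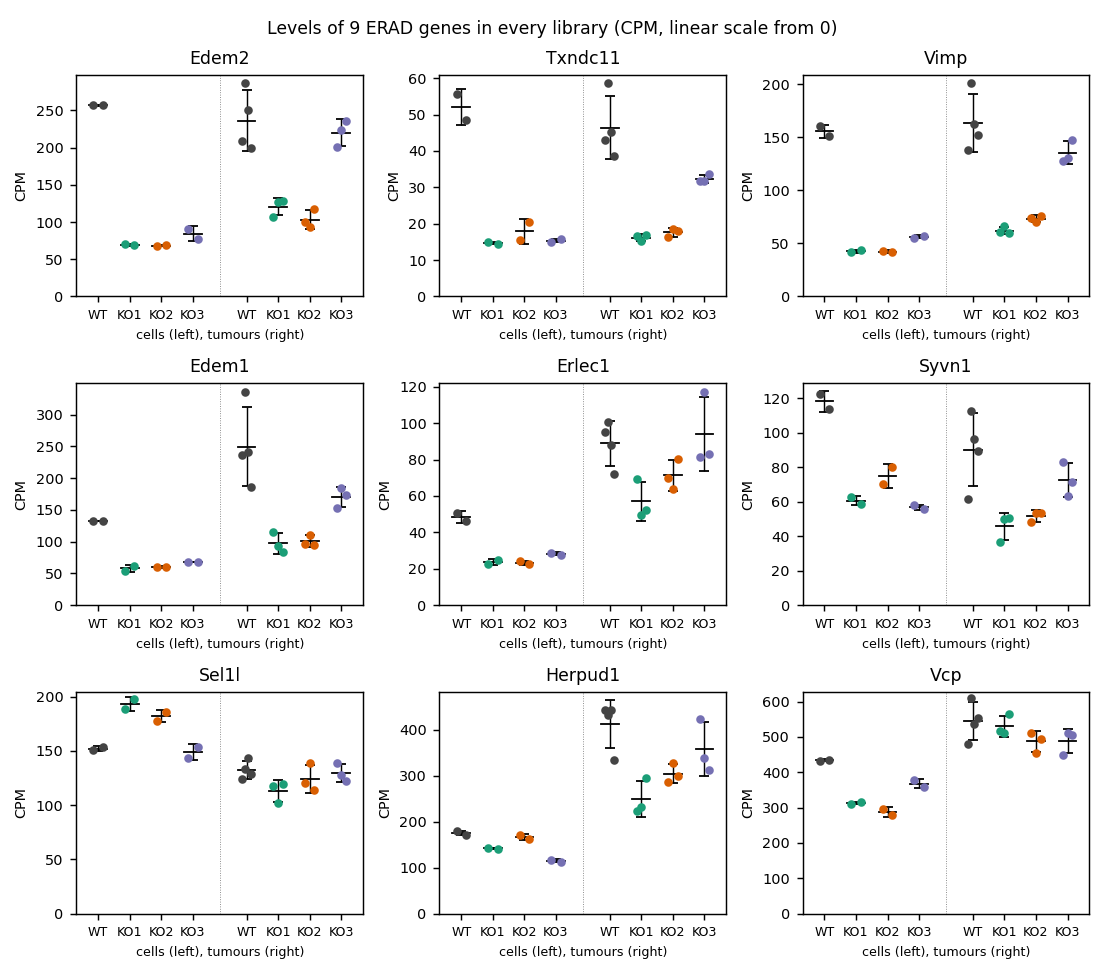
CPM of 9 ERAD genes in every library, on linear axes from 0, with WT, KO1, KO2 and KO3 cells at the left of each panel and tumours at the right. Points are libraries, and bars are the mean ± SD. Edem2, Txndc11, Vimp, Edem1, Erlec1 and Syvn1 are lower in all KO cell libraries than in WT cells. Sel1l is above WT in KO1 and KO2 cells.

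Genes that act before and after these steps were counted from lists. Of all 12254 genes tested in KO against WT cells, 9.76% fell and 4.99% rose. Of 15 lumenal chaperones and oxidoreductases of the ER, 14 fell in KO cells (median log2 fold change -1.31), among them Hyou1 (-1.39 ± 0.08), Manf (-1.96 ± 0.13) and P4hb (-1.46 ± 0.11). Of 10 tested genes of the calnexin cycle, which gives glycoproteins further rounds of folding, 8 fell (median -0.76), with Mlec at -1.14, Uggt1 at -0.92 and Canx at -0.92. Of 32 proteasome subunits 9 fell (median -0.18), with Psmd4 at -0.58, Psma5 at -0.70 and Psmb3 at -0.72. Of 23 further ERAD ligases and their cofactors 4 fell (median -0.16), including the sterol-regulated ligase cofactor Insig1 (-1.20 ± 0.26), Rnf145 (-0.92 ± 0.21) and Bcap31 (-0.52 ± 0.12). Of 23 tested genes of cytosolic handling, deubiquitination and VCP adaptors 2 fell, the shuttle genes Ubqln1 (-0.30) and Ubqln4 (-0.30), and the median was 0.03. That count was near the share of all genes that fell. Of 13 regulators of the unfolded protein response 6 fell and 1, Ern1, rose. Bhlha15, which encodes the secretory cell factor MIST1, was at 16.0 ± 2.70 CPM in the 2 WT cell libraries and 0.406 ± 0.140 CPM in the 6 KO libraries (mean ± SD), Creb3l2 was at -1.11 ± 0.10 and Eif2ak3, the gene of PERK, at -1.04 ± 0.10 on the log2 scale. None rose in the other lists.

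The second comparison set the 9 KO tumours against the 4 WT tumours. Edem1, Txndc11 and Ufd1l fell, 3 of 36 members tested, and none rose, where 2.37% of 14200 genes fell and 1.28% rose. The members' median log2 fold change was -0.18, against 0.00 for all genes. In bulk tumour RNA, fewer cells of a type and less RNA per cell cannot be told apart. Summed leukocyte markers were 85.3 to 262 CPM in WT tumours and 110 to 205 CPM in KO tumours, against at most 0.768 CPM in cells, and skeletal muscle markers ran from 0.903 to 4020 CPM in WT and from 1.08 to 925 CPM in KO. Their part in these results was not tested.

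Edem1 was at 236.3, 335.7, 241.2 and 185.7 CPM in WT tumours 1 to 4. In KO tumours its lowest value was 83.29, its median 111.1 and its highest 184.5 CPM. The groups did not overlap but nearly met, and the log2 fold change was -1.02 ± 0.21 (adjusted p = 0.0224 by edgeR). Txndc11 was at 42.98, 58.8, 45.11 and 38.75 CPM in WT tumours and at 15.19 to 33.71 CPM in KO tumours (median 17.91; log2 fold change -1.07 ± 0.22, adjusted p = 0.0226 by edgeR). Ufd1l was at 106.8, 137.2, 106.8 and 112.1 CPM in WT tumours and at 62.2 to 91.23 CPM in KO tumours (median 81.25), with no overlap (log2 fold change -0.55 ± 0.11, adjusted p = 0.0214 by edgeR). For Edem1 and Txndc11 the highest KO tumours were those of KO3.

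Vimp and Edem2, which had log2 fold changes of -1.74 and -1.81 in cells, did not pass in tumours, at -0.85 ± 0.24 (adjusted p = 0.0619 by edgeR) and -0.67 ± 0.24 (adjusted p = 0.133 by edgeR). For both, KO1 and KO2 tumours lay below all WT tumours and KO3 tumours within or near the WT range. Syvn1 was at 61.74, 112.7, 96.48 and 89.57 CPM in WT tumours and at 36.61 to 82.75 CPM in KO tumours (median 53.56), with overlap (log2 fold change -0.67 ± 0.18, adjusted p = 0.0542 by edgeR). Sel1l was at 124.0 to 143.8 CPM in WT and at 101.6 to 138.6 CPM in KO, and Vcp at 478.9 to 611.5 and 448.4 to 564.4 CPM. Both overlapped and had log2 fold changes of -0.11. Herpud1 was at 442.2, 431.0, 443.6 and 334.5 CPM in WT and at 222.1 to 423.1 CPM in KO (median 299.4; log2 fold change -0.44 ± 0.14, adjusted p = 0.0987 by edgeR). Rnf139, a sterol-linked membrane ligase, had the highest positive value of the members, at 0.46 ± 0.16, and did not pass (adjusted p = 0.129 by edgeR).

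WT tumour 2 was the highest WT tumour for Edem1, Edem2, Txndc11, Vimp, Syvn1 and Ufd1l, and without it no member passed. Without WT tumours 1 and 4 together, the libraries that stand apart, no member passed either.

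Of the lists around ERAD, 5 of 15 lumenal chaperones fell in KO tumours, including Dnajb11 (-0.59 ± 0.14), Manf (-0.68 ± 0.16) and Sdf2l1 (-1.16 ± 0.28), and their median was -0.65. Of all genes tested there, 2.37% fell. Of 32 proteasome subunits 8 fell, including Psma5 (-0.48 ± 0.08), Psmd4 (-0.58 ± 0.10) and Psmd2 (-0.37 ± 0.08). Eif2ak3 was the 1 of 14 regulators of the unfolded protein response that fell (-0.67 ± 0.11). No gene of the calnexin cycle (13 tested), of the further ligases (23) or of cytosolic handling (24) passed in edgeR. At an unadjusted p under 0.05 there were 3, 4 and 5 such genes.

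KO3 was then left out. Each line was left out in turn, and this setting is described with the knowledge that KO3 tumours lay nearest WT, so the larger count follows in part from that choice and is not independent support. Without KO1 or without KO2, 1 member was called. The same WT tumours serve as controls in this and the preceding comparison. With KO1 and KO2 tumours alone (6 libraries) against WT tumours, 12 of 36 members fell and none rose, where 4.05% of 13860 genes fell and 1.49% rose, and the members' median was -0.29. In glycan recognition these were Edem1 (-1.34 ± 0.15), Edem2 (-1.08 ± 0.13) and Txndc11 (-1.46 ± 0.11). In the HRD1 complex they were Syvn1 (-0.89 ± 0.15), Derl1 (-0.51 ± 0.08) and Herpud1 (-0.59 ± 0.13). Ube2g2 (-0.54 ± 0.11) and its recruiter Aup1 (-0.51 ± 0.13) fell among the E2 genes, Rnf185 (-0.32 ± 0.08) among the other ligases, and Vimp (-1.27 ± 0.11), Ufd1l (-0.60 ± 0.12) and Ubxn4 (-0.38 ± 0.08) at the VCP step. Vimp was at 59.33 to 76.14 CPM in these 6 tumours and at 137.7, 201.0, 162.3 and 151.7 CPM in WT tumours, and Edem2 at 93.36 to 128.7 CPM against 208.5, 287.3, 250.7 and 199.4 CPM. Neither overlapped, which follows in part from their having passed here. Sel1l (-0.17 ± 0.09) and Vcp (-0.10 ± 0.09) did not pass.

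By line, the step medians show where KO3 parts from the others. In cells the recognition genes had medians of -1.03, -1.05 and -0.81 against WT in KO1, KO2 and KO3, and in tumours -0.64, -0.33 and 0.01. The HRD1 complex had -0.12, -0.11 and -0.40 in cells and -0.38, -0.32 and -0.06 in tumours. The VCP step had -0.22, -0.24 and -0.27 in cells and -0.30, -0.17 and -0.13 in tumours. E2 genes had -0.08, 0.01 and -0.13 in cells and -0.35, -0.35 and -0.15 in tumours, and the other ligases -0.03, 0.06 and -0.20 in cells and -0.29, -0.14 and 0.02 in tumours. All lines were set against the same WT libraries, so these values are not independent. Medians over all genes lay between -0.02 and 0.02.

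**Figure D2:**
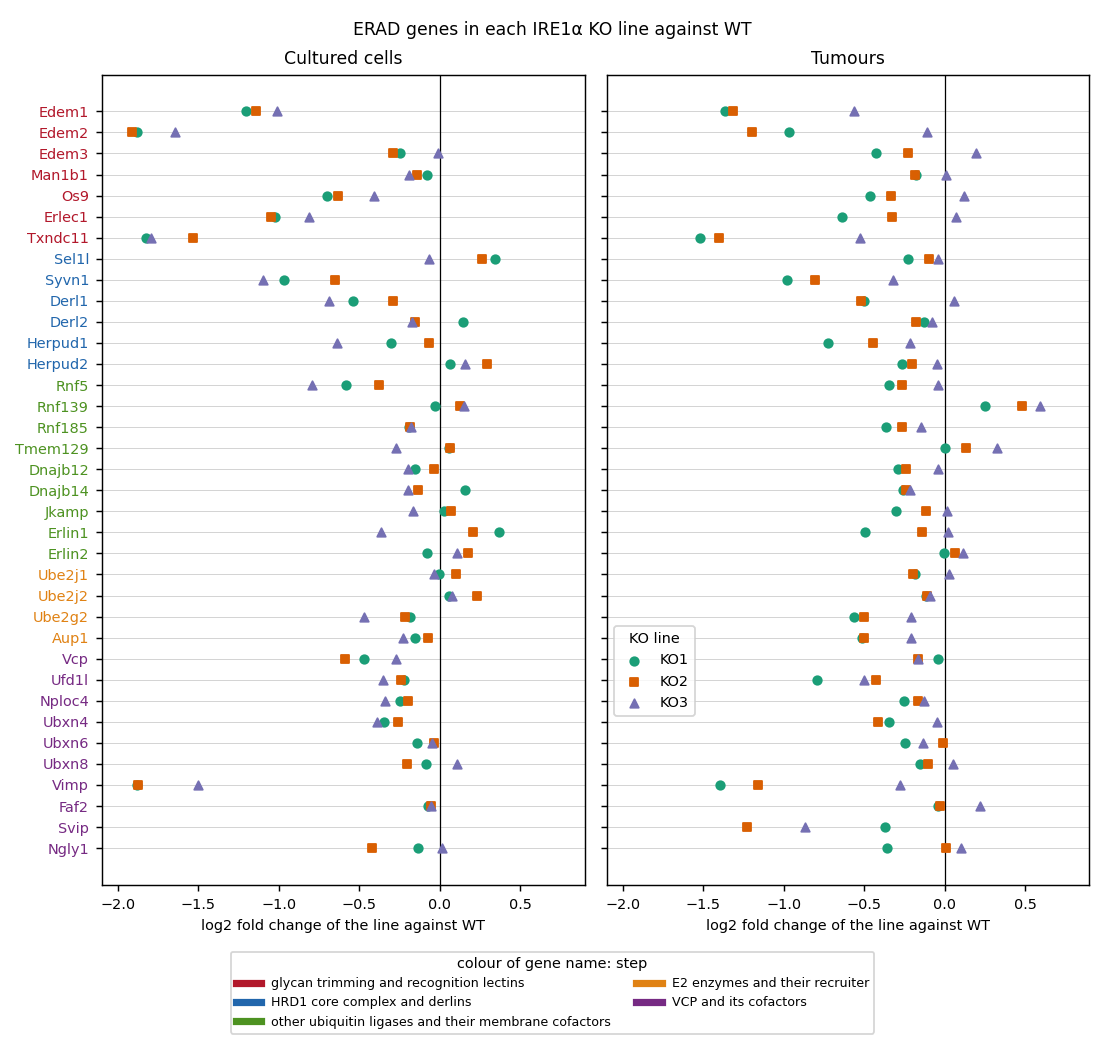
Log2 fold change against WT of each ERAD member in each KO line, in cells at the left and tumours at the right. Symbols are lines and name colours are steps, and no error is drawn. In tumours KO3 is nearer 0 than KO1 and KO2 for Edem1, Edem2, Txndc11, Vimp and Derl1, and in cells all 3 lines lie below -0.8 for Edem1, Edem2, Erlec1, Txndc11 and Vimp.

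The third comparison asked whether the KO effect differed between tumours and cells, as an interaction over all 21 libraries. No member passed in edgeR, of 36 tested, where 0.863% of 15173 genes were higher and 0.0989% lower. At an unadjusted p under 0.05 there were 5 members, and DESeq2 called none. Without KO3, 2 members passed, both higher, meaning less reduced in tumours: Edem2 (0.84 ± 0.19, adjusted p = 0.0182 by edgeR) and Vimp (0.63 ± 0.15, adjusted p = 0.0241 by edgeR). There 2.65% of 14949 genes were higher and 0.983% lower. Tumours also hold RNA of host cells, which are not of the KO lines. Summed macrophage markers were 272 to 967 CPM in tumours and 1.61 to 2.64 CPM in cells. A smaller KO effect in the line's own cells and RNA from host cells cannot be told apart here, and their part was not tested. Edem1 (-0.15 ± 0.22, 95% interval -0.62 to 0.32) and Txndc11 (0.23 ± 0.19, interval -0.18 to 0.64) did not pass, and their intervals leave room for moderate differences. Around ERAD, the effect over all lines was higher in tumours for the lumenal chaperones Manf (1.30 ± 0.26), Hsp90b1 (1.07 ± 0.22) and Hspa5 (0.97 ± 0.22), for the ligase Rnf145 (0.97 ± 0.23) and for Mbtps1 (0.61 ± 0.15), whose protease cuts ATF6. Hspa5, the gene of BiP, had means of 1394 ± 64.3 and 567.0 ± 55.1 CPM in WT and KO cells (SD, n = 2 and 6), and of 1843 ± 297 and 1447 ± 275 CPM in WT and KO tumours (SD, n = 4 and 9).

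**Figure D3:**
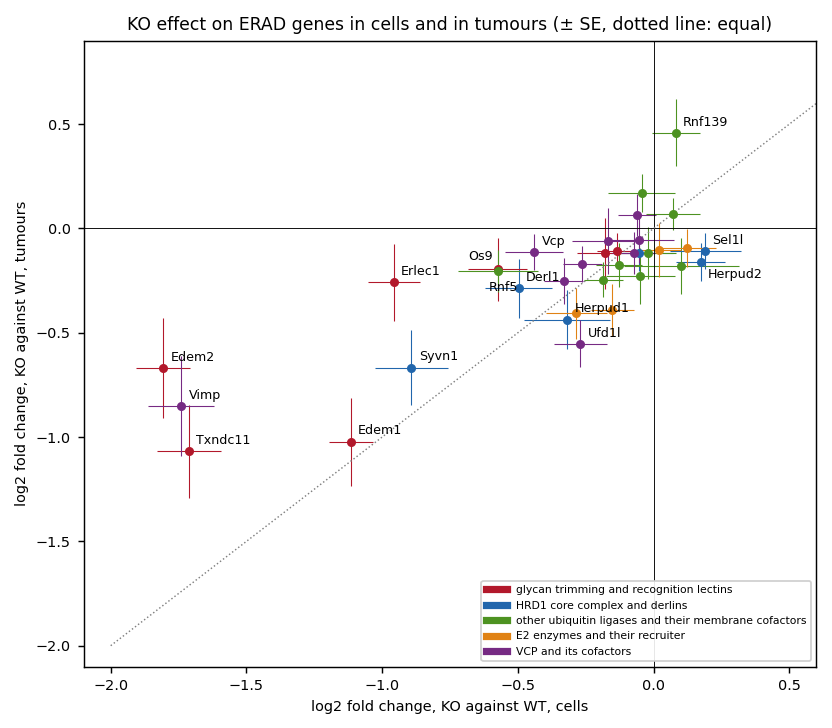
Log2 fold change of KO against WT for the members tested in both settings, cells on the horizontal axis and tumours on the vertical, each with its SE. Colours are steps, and the dotted line marks equal values. Edem2, Vimp, Txndc11 and Erlec1 lie above the line and Edem1 close to it, and most other members lie near 0 on both axes. No member passed in the test of this difference over all lines.

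KO3 was next compared directly with KO1 and KO2. The WT libraries enter this comparison only through the filter on low counts, the scaling and the shared estimate of spread. In cells, 7 of 35 members were higher in KO3 and 8 lower, where 17.1% of 12254 genes were higher and 15.5% lower, so the members' shares were near the background and the counts are given as a description. The steps were not tested against each other. Of 7 recognition genes 4 were higher and none lower, with Edem2, Edem3, Os9 and Erlec1 between 0.22 and 0.26 on the log2 scale. Of these, Erlec1 passed in 5 of 13 alternatives (0.09 to 0.26; not by DESeq2), Edem3 in 10, Os9 in 11 (0.15 to 0.36; not without KO1 cell library 1 or KO3 cell library 2) and Edem2 in 12 (0.15 to 0.36; not without KO3 cell library 1). Of 6 genes of the HRD1 complex 4 were lower and none higher: Herpud1 (-0.45 ± 0.06), Sel1l (-0.37 ± 0.06), Syvn1 (-0.29 ± 0.07) and Derl1 (-0.28 ± 0.07). Of the other ligases Erlin1 (-0.65 ± 0.07), Tmem129 (-0.33 ± 0.07) and Rnf5 (-0.32 ± 0.11, with KO3 and KO1 libraries overlapping, passing in 6 of 13 alternatives and not by DESeq2, -0.48 to -0.15) were lower, as was Ube2g2 (-0.27 ± 0.08), and at the VCP step Vimp (0.38 ± 0.06), Ngly1 (0.29 ± 0.06) and Vcp (0.26 ± 0.06) were higher.

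Erlin1 had the smallest p of these. It was at 169.0 and 145.4 CPM in KO3 cells, and at 250.3 and 260.0 CPM in KO1 and 216.0 and 238.6 CPM in KO2. Both KO3 libraries lay below the others and below WT, at 206.9 and 188.1 CPM (adjusted p = 3.74e-05 by edgeR). Vimp was at 55.49 and 57.28 CPM in KO3 and at 41.45 to 43.32 CPM in the 4 KO1 and KO2 libraries (adjusted p = 0.000804 by edgeR), still far below WT. Ngly1, which strips N-glycans from retrotranslocated proteins, was at 90.14 and 83.19 CPM in KO3 and at 62.27 to 80.18 CPM in KO1 and KO2, and Vcp at 376.7 and 358.8 CPM against 278.4 to 315.2 CPM. Neither overlapped, which follows in part from their having passed here. Derl1 was at 85.58 and 80.17 CPM in KO3, 84.16 and 95.98 CPM in KO1 and 102.5 and 110.6 CPM in KO2, so that KO3 and KO1 overlapped. Tmem129, a ligase of another retrotranslocation route, was at 18.44 and 17.99 CPM in KO3 and at 21.51 to 23.28 CPM in KO1 and KO2. The values of Herpud1 and Sel1l, given above, did not overlap between KO3 and the other lines. The counts depended on the KO3 libraries: without KO3 cell library 1, 8 members were called and without KO3 cell library 2, 7. The log2 difference of Sel1l was -0.82 with the length-scaled table. Among regulators of the unfolded protein response, of which 4 of 13 were higher and 3 lower, Ddit3 (-2.24 ± 0.12) and Atf4 (-1.17 ± 0.08) were lower in KO3 cells and Xbp1 (0.59 ± 0.07) higher. Ddit3, which encodes CHOP, was at 4.63 ± 0.553 CPM in KO3 (SD, n = 2), 22.7 ± 0.314 CPM in KO1, 20.0 ± 0.425 CPM in KO2 and 5.76 ± 0.958 CPM in WT cells (SD, n = 2 each). Of the other lists, 5 of 23 further ligases were higher and 2 lower (Insig1 0.86, Rnf145 0.65, Rnf103 0.47), 5 of 23 genes of cytosolic handling higher and 2 lower (Rhbdd1 -0.72, Ubqln2 0.41, Usp25 0.28), and 5 of 10 genes of the calnexin cycle higher and 1 lower (Calr 0.65, Pdia3 0.51, Ganab -0.26). Of 15 lumenal chaperones 5 were higher and 2 lower (Pdia6 0.60, Ero1l -0.47, Hsp90b1 0.44), and of 32 proteasome subunits 8 were higher and 1 lower (Psmd8 0.39, Psmd13 0.29, Psmb1 0.26). These counts stand beside 17.1% of all genes higher and 15.5% lower.

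In tumours, KO3 exceeded the other lines in 6 of 36 members and was lower in none, where 1.19% of 14483 genes were higher and 0.697% lower. The members' median was 0.24, and that of all genes 0.00. Of the 7 recognition genes 4 were higher, Edem2, Txndc11, Edem1 and Os9, and with them Derl1 of the HRD1 complex and Vimp of the VCP step. The E2 genes and the other ligases had none. Vimp was at 127.7, 130.4 and 147.7 CPM in KO3 tumours and at 59.33 to 76.14 CPM in the 6 others (log2 difference 1.0 ± 0.11, adjusted p = 0.000477 by edgeR). Txndc11 was at 31.69, 31.73 and 33.71 CPM against 15.19 to 18.57 CPM (0.94 ± 0.12, adjusted p = 0.000988 by edgeR). Edem2 was at 200.9, 223.2 and 236.5 CPM against 93.36 to 128.7 CPM (0.97 ± 0.13, adjusted p = 0.0014 by edgeR). None of the 3 overlapped, which follows in part from their choice by p in this same comparison. The KO3 values of Edem2 were in the range of WT tumours, those of Txndc11 below it, and for Vimp 2 of the 3 KO3 tumours lay below it.

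Derl1 was at 125.9, 119.8 and 126.5 CPM in KO3 tumours and at 76.25 to 89.98 CPM in KO1 and KO2 (0.57 ± 0.08, adjusted p = 0.0037 by edgeR). In cells the same gene was lower in KO3, and the change of sign between cells and tumours was not tested. Edem1 was at 152.5, 184.5 and 172.9 CPM against 83.29 to 114.5 CPM (0.78 ± 0.16, adjusted p = 0.0256 by edgeR, past the threshold in 13 of 19 alternatives). Os9 was at 253.0, 269.1 and 269.0 CPM against 148.1 to 199.3 CPM (0.52 ± 0.12, adjusted p = 0.049 by edgeR), and passed in 6 of 19 alternatives. Syvn1 did not overlap between the lines but did not pass (0.57 ± 0.16, adjusted p = 0.116 by edgeR), and Herpud1 (0.37 ± 0.13), Sel1l (0.12 ± 0.10) and Vcp (-0.06 ± 0.10) did not pass either.

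Around the members, 11 of 15 lumenal chaperones were higher in KO3 tumours (median 0.77), with P4hb at 1.43 ± 0.09, Dnajb9 at 1.52 ± 0.15 and Pdia6 at 0.84 ± 0.08. Of all genes tested there, 1.19% were higher. Dnajb9, a BiP cochaperone, was at 37.97 ± 2.40 CPM in KO3 tumours (SD, n = 3), 13.2 ± 2.17 CPM in KO1 and KO2 tumours (SD, n = 6) and 48.7 ± 8.40 CPM in WT tumours (SD, n = 4), while in KO3 cells it was at 10.1 ± 1.48 CPM (SD, n = 2) against 29.7 ± 0.334 CPM in WT cells (SD, n = 2). Of 14 regulators 4 were higher, among them Creb3l2 (1.79 ± 0.08), Bhlha15 (2.65 ± 0.27) and Xbp1 (0.60 ± 0.12). Insig2 (0.45 ± 0.10) of the 23 further ligases and Uggt1 (0.48 ± 0.10) of the 13 genes of the calnexin cycle were higher. Of the proteasome subunits and of the genes of cytosolic handling none passed in edgeR, with 1 and 0 at an unadjusted p under 0.05. Summed skeletal muscle markers were 1.08 to 5.14 CPM in KO3 tumours, 339 to 925 CPM in KO1 and 13 to 719 CPM in KO2, and fibroblast markers 472 to 1090, 1270 to 2020 and 478 to 656 CPM. Their part in the line difference was not tested.

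**Figure D4:**
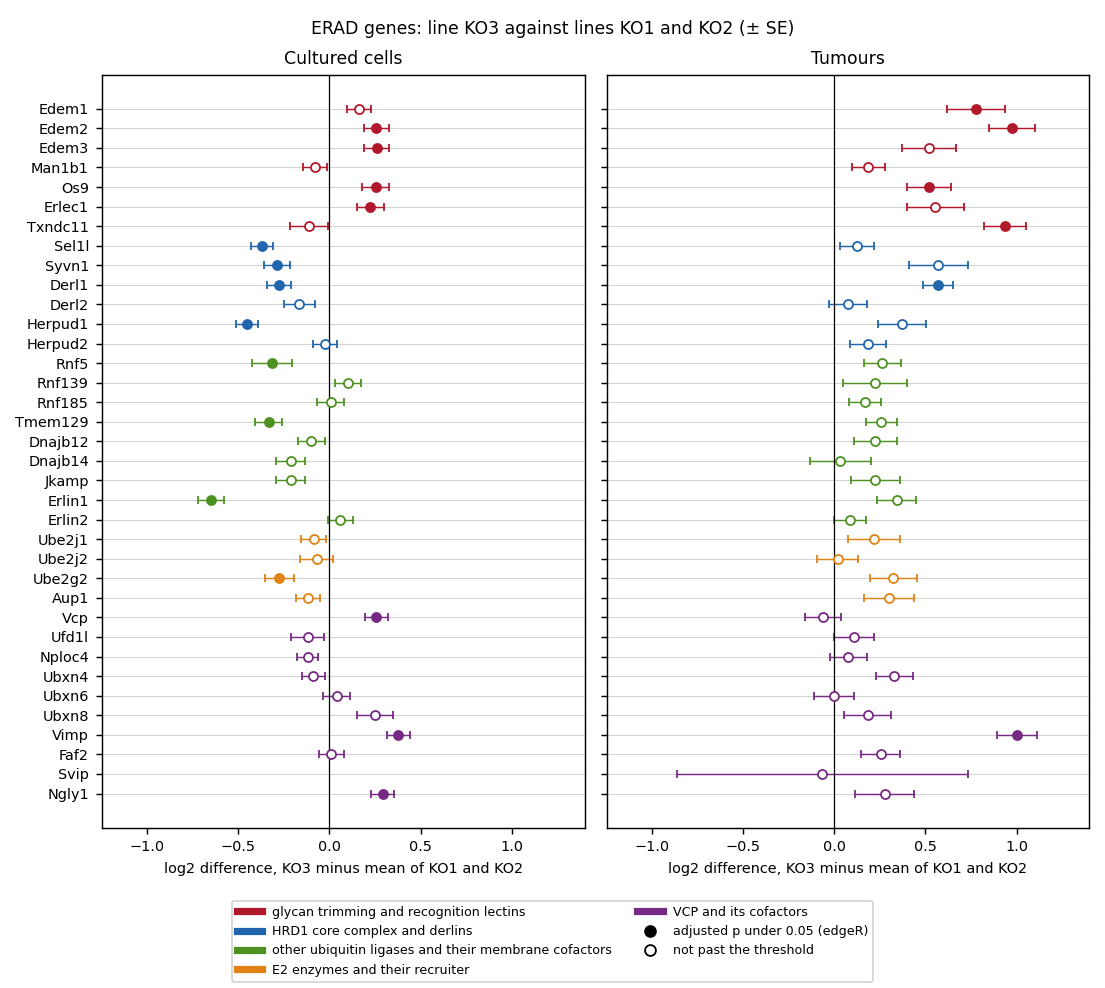
Log2 difference of KO3 from the mean of KO1 and KO2, with its SE, for each ERAD member in cells (left) and tumours (right). Filled points passed an adjusted p of 0.05 by edgeR, and colours are steps. In cells 5 of the 7 recognition genes lie above 0 and the 6 genes of the HRD1 complex below it. In tumours the members lie above 0 except Vcp, Ubxn6 and Svip.

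The last comparison set the 4 WT tumours against the 2 WT cell libraries, the same WT libraries that serve as controls above. Of 36 members 12 were higher in tumours and 4 lower, where 29.8% of 14031 genes were higher and 21.3% lower, so that the share of members that were higher was near the background. The members' median was -0.01, and that of all genes 0.13. Tumours hold host cells that cultures lack: B and plasma cell markers summed to at most 0.0522 CPM in cells and to 4.93 to 20.8 CPM in tumours, and fibroblast markers to 13.9 to 20.8 and 296 to 2020 CPM. Their part in the differences was not tested.

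Ufd1l was at 33.77 and 31.54 CPM in WT cells and at 106.8, 137.2, 106.8 and 112.1 CPM in WT tumours (log2 difference 1.86 ± 0.14, adjusted p = 0.000106 by edgeR). Nploc4, its partner, had lower values in tumours, from 133.8 and 127.3 CPM to 83.96, 111.7, 102.4 and 92.15 CPM (-0.39 ± 0.12, adjusted p = 0.0371 by edgeR). That call of Nploc4 was lost in 5 of 13 alternatives, with WT tumours 3 and 4 summed, with the replicate block, and without either WT cell library or WT tumour 3 (-0.58 to -0.28, adjusted p up to 0.245 by edgeR). Herpud1 was at 178.6 and 171.8 CPM in cells and at 442.2, 431.0, 443.6 and 334.5 CPM in tumours (1.27 ± 0.16, adjusted p = 0.00079 by edgeR). For each of these 3 genes cells and tumours did not overlap. The share of all genes without overlap is not given here, so this describes these 3 genes only.

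Edem1 (0.95 ± 0.23) and Erlec1 (0.92 ± 0.16) were higher in tumours, whereas Edem2 (-0.09 ± 0.16), Txndc11 (-0.13 ± 0.17) and Os9 (-0.12 ± 0.17) did not pass. Erlec1 was at 50.67 and 46.05 CPM in cells and at 95.14, 100.7, 88.14 and 72.01 CPM in tumours (adjusted p = 0.00288 by edgeR). Os9, its fellow lectin, thus had no such difference beyond its error. Of the derlins Derl2 was higher, from 24.74 and 24.52 CPM to 37.34, 40.46, 37.13 and 45.83 CPM (0.74 ± 0.12, adjusted p = 0.00281 by edgeR). Erlin1 was at 206.9 and 188.1 CPM in cells and at 280.2, 319.4, 296.4 and 290.6 CPM in tumours (0.62 ± 0.11, adjusted p = 0.00288 by edgeR), with a log2 difference of 0.29 and no call from the length-scaled table (adjusted p = 0.145 by edgeR). Ubxn8, which tethers VCP to the ER membrane, was at 11.82 and 11.21 CPM and at 19.19, 27.42, 19.84 and 24.81 CPM (1.02 ± 0.18, adjusted p = 0.00364 by edgeR). Aup1 and Ngly1 went the other way. Aup1 was at 104.9 and 113.0 CPM in cells and at 61.03, 61.63, 56.55 and 43.5 CPM in tumours (-0.93 ± 0.16, adjusted p = 0.00279 by edgeR). Ngly1 was at 84.87 and 82.57 CPM and at 36.53, 51.42, 50.4 and 45.67 CPM (-0.83 ± 0.14, adjusted p = 0.00264 by edgeR).

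Among the other calls, Dnajb14, Edem3, Ubxn6, Vcp and Ube2g2 were between 0.31 and 0.93 higher on the log2 scale and Faf2 was -0.49 ± 0.14. Of these, Vcp passed in 4 of 13 alternatives (0.16 to 0.43) and Ube2g2 in 8. Sel1l (-0.16 ± 0.10), Syvn1 (-0.36 ± 0.21) and Derl1 (-0.10 ± 0.10) did not pass. Without WT cell library 1, and likewise without WT cell library 2, 8 members were called. Derl3 was at 12, 6, 3 and 1 counts in WT tumours 1 to 4 and at 0 to 6 counts in KO tumours, up to 0.569 CPM, and Svip at 71, 4, 13 and 3 counts in WT tumours and 5 to 22 counts in KO tumours. Derl3 was thus near the floor of 3 counts, which is 0.108 to 0.242 CPM in tumours, in most libraries, and Svip in few. WT tumour 1 was the highest for both genes. Its summed neutrophil (234 CPM), skeletal muscle (4020 CPM), adipocyte (784 CPM), leukocyte (262 CPM) and endothelial markers (154 CPM) were also the highest of the tumours. Their part in these counts was not tested.

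Of the lists around ERAD, 9 of 15 lumenal chaperones were higher in WT tumours and 1 lower, with Ero1l (2.10 ± 0.14), Ero1lb (1.84 ± 0.13) and Hsp90b1 (0.99 ± 0.12) higher. Of all genes tested there, 29.8% were higher and 21.3% lower. Of 32 proteasome subunits 16 were higher and 2 lower, with Psmd8 at -0.94 ± 0.10, Psmb3 at 0.96 ± 0.11 and Psma3 at 0.93 ± 0.13. Of 23 further ligases 4 were higher and 5 lower, with Rnf103 at 1.55 ± 0.15, the glycoprotein-reading Fbxo6 at 1.13 ± 0.14 and Insig2 at -1.12 ± 0.14. Of 23 genes of cytosolic handling 3 were higher and 5 lower, with Bag6 at -1.10 ± 0.12, Ubqln1 at 0.58 ± 0.10 and Ubqln2 at -1.18 ± 0.22. In the calnexin cycle 5 of 13 were higher and 1 lower. The Golgi mannosidase genes Man1a and Man1c1 had 0 counts in WT cells and were at 14.99 ± 4.67 and 5.80 ± 1.54 CPM in WT tumours (SD, n = 4), and Pdia3 was at 1.12 ± 0.17. Of 14 regulators 2 were higher and 6 lower, the latter including Creb3l2 (-1.06 ± 0.11), Eif2ak3 (-0.83 ± 0.14) and Ern1 (-0.75 ± 0.13).

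Levels were compared between genes only per kilobase of exon. In WT cells the highest were Vimp at 105.5, Os9 at 102.2, Vcp at 89.4, Herpud1 at 75.1 and Edem2 at 74.3 CPM per kb, and the lowest tested was Dnajb14 at 1.54. Vimp and Os9, and Herpud1 and Edem2, differed by less than the spread between libraries. In WT tumours Herpud1 led at 176.9, followed by Vcp at 112.4, Vimp at 110.5, Os9 at 92.0 and Edem2 at 68.3 CPM per kb, with Vcp and Vimp within their spread. In KO1 and KO2 cells Vimp stood at 28.7 and 28.6 CPM per kb, below Os9 (63.1 and 65.9), Vcp (64.6 and 59.3) and Herpud1 (60.8 and 71.5). SEL1L and HRD1 act together, and Sel1l and Syvn1 were at 17.8 and 24.3 CPM per kb in WT cells, and at 22.6 and 12.5 in KO1, 21.3 and 15.5 in KO2 and 17.4 and 11.7 in KO3 cells. The order of the pair on this scale was thus reversed in all 3 KO lines, and in WT tumours it was 15.5 and 18.6, in KO1, KO2 and KO3 tumours 13.2 and 9.40, 14.5 and 10.6, and 15.1 and 14.9. This scale uses 1 exon length per gene in all groups. The log2 difference of Sel1l in KO3 cells changed with the length-scaled table, so its values per kb are uncertain. The order of the pair was not tested.

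Positions in GRCm38 (GENCODE M21) of the members with the smallest p were chr2:155701677-155729475 for Edem2 (ENSMUSG00000038312, - strand), chr16:11074911-11134650 for Txndc11 (ENSMUSG00000022498, - strand), chr7:66079649-66089405 for Vimp (ENSMUSG00000075701, + strand), chr6:108828641-108859356 for Edem1 (ENSMUSG00000030104, + strand) and chr16:18811779-18835261 for Ufd1l (ENSMUSG00000005262, + strand). Counts cover whole genes, exons and untranslated regions together. Exons of several members overlap those of a gene on the opposite strand. Ubxn6 shares 4648 bases with Chaf1a, Rnf139 1140 bases with Tatdn1, Aup1 753 bases with Htra2 and Rnf5 366 bases with Gm20463. Vcp shares 352 bases with 1700022I11Rik, Tmem129 289 with Tacc3, Man1b1 234 with AA543186, Derl2 231 with Mis12 and Ufd1l 209 with Cdc45. Jkamp, Syvn1, Txndc11 and Ngly1 share 121, 91, 75 and 21 bases with such a gene. The library kit marks strand, but the strand setting of the counting is not given in the sources used here. Values of these genes are uncertain to that extent. On the same strand, Rnf139 shares 197 bases with Gm49356 and Ube2g2 166 bases with Gm49325.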

How the data were processed

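The authors deposited estimated counts per gene, made with Trim Galore 0.6.7, STAR and Salmon 1.5.2 on GRCm38 per the submitters' processing notes; whether replicates were filtered or pooled is not given in the sources used here. Both the plain and a length-scaled table of estimated counts were deposited, and the plain one was used here, rounded to whole numbers, with 7.96% to 10.2% of values per library not whole before rounding. Groups came from the sample labels.

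Genes passing edgeR's filterByExpr were scaled by TMM and tested by edgeR's quasi-likelihood F test (edgeR 4.0.16, R 4.3.3) with Benjamini-Hochberg adjustment over all genes tested, at 0.05. Tests in cells used the 8 cell libraries, those in tumours the 13 tumour libraries, the difference of the KO effects all 21, and WT tumours against cells the 6 WT libraries. CPM uses TMM-scaled totals. Scripts were tested on simulated data. As alternatives, counts were scaled by RLE, tested by DESeq2 1.42.0, left unfiltered or taken from the length-scaled table, with lines taken separately, summed or left out, the replicate number as a block, WT tumours 3 and 4 summed, and each library left out.

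The members and all lists were chosen with earlier results of these data known. Named were Edem1, Herpud1, Derl3, Sel1l, Syvn1 and Vcp, up to 8 members past the threshold with the smallest p in each comparison, with values per library, and up to 3 genes per list by the same order. Other members were named after their values were seen, to account for all. Replicate numbers were not treated as pairs in the main tests. Replicates differed by a chi-square of at least 7.98 per degree of freedom, so none was counted as a repeat. Positions came from GENCODE M21, in which 45143 of 45706 IDs and 37 members matched. Promoters came from RefSeq (GRCm38.p6). Marker lists for 9 cell types gave the summed levels. Some markers of the cell line are not reported here.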

Additional observations from a re-analysis of the deposited data

Results flagged for a closer look

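Of 108 sets of one member in one group of 4 to 10 libraries, 10 had a single library apart from the rest by Dixon's test, and chance gives about 1 in 20. Among WT tumours, tumour 1 was low for Derl1 (106.4 CPM, the others 122.2 to 123.7) and high for Ube2j2 (23.5 CPM, the others 17.71 to 18.62), tumour 4 was low for Herpud1 (334.5 CPM, the others 431.0 to 443.6), and tumour 2 was high for Rnf5 (42.66 CPM, the others 32.95 to 34.45). Among KO tumours, the second KO3 tumour was the highest for Erlec1 (117.3 CPM, the others 49.67 to 83.31), Rnf139 (70.76 CPM, the others 39.75 to 54.39) and Jkamp (28.62 CPM, the others 17.2 to 22.46). Among KO cells, the second KO2 library was high for Txndc11 (20.39 CPM, the others 14.5 to 15.68) and Ube2j2 (29.41 CPM, the others 23.03 to 24.27), and the second KO1 library for Man1b1 (87.82 CPM, the others 76.93 to 79.47).

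The remaining results were picked out because the KO3 line differed from KO1 and KO2 in a direct test by edgeR. In cells the log2 differences above 0 were 0.38 for Vimp, 0.29 for Ngly1, 0.26 for Vcp, 0.26 for Edem3, 0.26 for Edem2, 0.25 for Os9 and 0.22 for Erlec1. Those below 0 were -0.65 for Erlin1, -0.45 for Herpud1, -0.37 for Sel1l, -0.33 for Tmem129, -0.32 for Rnf5, -0.29 for Syvn1, -0.28 for Derl1 and -0.27 for Ube2g2. In tumours they were 1.0 for Vimp, 0.97 for Edem2, 0.94 for Txndc11, 0.78 for Edem1, 0.57 for Derl1 and 0.52 for Os9. Edem2, Vimp and Os9 were higher in KO3 in both settings, and Derl1 was lower in cells and higher in tumours.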

How the results depend on the processing

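No member called in any of the 6 comparisons reversed its direction under any alternative. Of 35 members in KO against WT cells, 12 were called, 2 with libraries summed per line, and 6 to 12 when 1 library was left out. In KO against WT tumours 3 were called, with 7 by DESeq2, 9 with the lines as separate groups, 1 without KO1, 1 without KO2, 12 without KO3, 0 with libraries summed per line and 0 to 6 when 1 library was left out (0 without WT tumour 2, and 6 without KO3 tumour 1 or 3). Without WT tumours 1 and 4, an alternative chosen after seeing the data, 0 were called. For the KO effect in tumours minus cells 0 were called, with 3 with the lines as separate groups and 2 without KO3. KO3 against KO1 and KO2 gave 15 in cells (7 to 16 when 1 library was left out) and 6 in tumours (11 by DESeq2, 4 to 7 when 1 library was left out), and WT tumours against WT cells gave 16 (8 to 16 when 1 library was left out). Fewer libraries or units were tested in the summed and left-out fits, and the cause of the other changes was not tested. With a replicate block 10 members were called in KO against WT cells and 0 in KO against WT tumours. Same-numbered libraries correlated at -0.0505 to 0.149 over 12 pairs in cells and -0.395 to 0.161 over 18 pairs in tumours. In cells replicates 1 and 2 of any pair of lines gave the same value, so those 12 are not independent. Whether same-numbered libraries share more than a number was not tested. Over all genes, KO against WT cells gave 1808 calls (38 summed per line) and KO against WT tumours 518 (1088 by DESeq2, 0 summed per line, 98 with the block). The same counts were 4780 with the lines separate, 4315 without KO3 and 378 and 428 without WT cell library 1 and 2 in cells, and 1118 with the lines separate, 297, 123 and 769 without KO1, KO2 and KO3, 154 without WT tumour 2 and 89 without WT tumours 1 and 4 in tumours. For the KO effect in tumours minus cells they were 146, with 599 with the lines separate and 543 without KO3, and for KO3 against KO1 and KO2 tumours 273, with 640 by DESeq2. In KO3 against KO1 and KO2 cells 17.1% of all genes were higher and 15.5% lower, and in WT tumours against WT cells 29.8% and 21.3%. The 15 and 16 members called there are thus given as a description. Depth limits Derl3, at 0 counts in cells and 12 or fewer in tumours, and Svip, at 0 counts in cells.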
